A study of Homo sapiens with 4 samples.

Results

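The ATG8 proteins are attached to the autophagosome membrane after processing by the ATG4 proteases. Transcripts of both families were measured in MHCC97H cells with and without knockdown of UBXN1. The genes were taken by name from the whole gene table: 6 genes of the ATG8 family (MAP1LC3A, MAP1LC3B and MAP1LC3B2 of the LC3 subfamily; GABARAP, GABARAPL1 and GABARAPL2 of the GABARAP subfamily) and the 4 ATG4 proteases (ATG4A, ATG4B, ATG4C and ATG4D). These are 10 of the 61541 genes in the table, and 9 of them had enough counts to be among the 16863 genes tested. MHCC97H is an established human hepatocellular carcinoma line. The control group, shCon, and the knockdown group, shUBXN1, held 2 RNA-seq libraries each, from the same untreated line apart from the short hairpin RNA (shRNA) each group received. The hairpins of the study were delivered with a lentiviral pLKO.1 vector, but which UBXN1 hairpin the sequenced cells carried, and whether they were a pool or a clone, is not given in the sources used here. Nothing in the labels says that the 2 libraries of a group came from separate cultures, so the p-values measure only the spread between these libraries, which may be technical.

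Macroautophagy encloses cargo in a growing double membrane that later fuses with the lysosome. ATG8 proteins are small ubiquitin-like proteins that become linked to phosphatidylethanolamine on that membrane, where they recruit cargo receptors and help the membrane close and fuse. An ATG4 protease first cuts the newly made ATG8 protein behind a glycine near its C-terminus, the enzymes ATG7, ATG3 and the ATG12-ATG5-ATG16L1 complex then attach it to the lipid, and ATG4 can release it again. In liver cells this pathway turns over mitochondria, protein aggregates and lipid droplets.

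The coding ends of the 6 ATG8 genes are shown because they encode the site that the ATG4 proteases cut. Each line gives the last 30 coding bases, stop codon included, of the canonical GENCODE v44 transcript (GRCh38), 5′ to 3′, with the codon of the acceptor glycine in capitals.
MAP1LC3A: tacgcctcccaggaaaccttcGGCttctga
MAP1LC3B: gagacgttcGGGatgaaattgtcagtgtaa
MAP1LC3B2: gagacgttcGGGatgaaattgtcagtgtaa
GABARAP: tacagtgacgaaagtgtctacGGTctgtga
GABARAPL1: tacagtgatgagagtgtctatGGGaaatga
GABARAPL2: tacagcggagagaacacttttGGCttctga
The glycine is codon 120 in the LC3 genes and codon 116 in the GABARAP genes. A single codon follows it in MAP1LC3A and in the 3 GABARAP genes, while 5 codons follow it in MAP1LC3B and MAP1LC3B2.

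MAP1LC3B and MAP1LC3B2 shared their last 30 coding bases and differed at only 2 of 378 coding positions, so that 99.5% of the bases were identical and the longest identical run was 307 bases. Counted from 1 at the first coding base, with the MAP1LC3B base first, the differences were C30G in codon 10 and A338G in codon 113. Both follow with the differing base in capitals, because within the coding parts only these bases separate the 2 genes. The untranslated parts, which a read or its mate may also cover, were not compared.
MAP1LC3B, bases 18 to 42: cttcaagcagcgCcgcaccttcgaa
MAP1LC3B2, bases 18 to 42: cttcaagcagcgGcgcaccttcgaa
MAP1LC3B, bases 326 to 350: tgtacatggtctAtgcctcccagga
MAP1LC3B2, bases 326 to 350: tgtacatggtctGtgcctcccagga
The other family members were more distant from each other. MAP1LC3A shared 71.2% of aligned coding bases with MAP1LC3B, GABARAP shared 76.8% with GABARAPL1 and 63.0% with GABARAPL2, and pairs across the subfamilies shared 49.3 to 55.7%. How reads were divided between MAP1LC3B and MAP1LC3B2 is therefore uncertain, whereas no other pair of the 6 ATG8 genes had an identical coding run of more than 20 bases.

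In GRCh38 with the GENCODE v44 annotation, MAP1LC3A lies on chromosome 20 (34546854 to 34560345, plus strand), MAP1LC3B on chromosome 16 (87383953 to 87404779, plus strand) and MAP1LC3B2 on chromosome 12 (116548105 to 116576606, plus strand). GABARAP lies on chromosome 17 (7240008 to 7242449, minus strand), GABARAPL1 on chromosome 12 (10212458 to 10223128, plus strand) and GABARAPL2 on chromosome 16 (75566375 to 75577881, plus strand). ATG4A lies on chromosome X (108091668 to 108154671), ATG4B on chromosome 2 (241637213 to 241673857), ATG4C on chromosome 1 (62784132 to 62865516) and ATG4D on chromosome 19 (10543895 to 10553418), all on the plus strand. Exons of 4 members overlap exons of another gene: 48.2% of the exon bases of GABARAP, 14.7% of ATG4D, 8.1% of GABARAPL1 and 1.2% of MAP1LC3B. The 2 genes that overlap GABARAP had at most 43.68 counts in any library against at least 2411.52 for GABARAP, and the antisense gene of GABARAPL1 had 0 counts in all 4. Whether the counting used strand is not given in the sources used here, so reads of ATG4D and its opposite-strand neighbour KRI1 cannot be told apart in the shared bases.

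The libraries held 23373700 to 27380508 counts. Levels are given as CPM (counts scaled to a common library size, on library sizes scaled with the trimmed mean of M-values), and as TPM (transcript abundance per length, from the deposited gene lengths) wherever genes are compared with each other. Differences are log2 fold changes of shUBXN1 over shCon from the quasi-likelihood test of edgeR, with p-values adjusted by the Benjamini-Hochberg method over all 16863 genes, so that a positive value means higher in shUBXN1. The targeted gene UBXN1 was at 67.1 and 77.3 CPM in shCon and at 16.8 and 18.5 CPM in shUBXN1, lower in both libraries as labelled. Over all tested genes the median log2 fold change was 0.02, and the adjusted p was under 0.05 for 28.0% of genes in the higher direction and for 28.2% in the lower direction. Of 14 hepatocyte and hepatocellular carcinoma markers, 13 were tested, 2 rose and 9 fell, with a median log2 fold change of -0.99. Among those that fell were the secreted liver proteins ALB (0.256-fold), TF (0.256-fold), APOB (0.277-fold), TTR (0.119-fold) and FGB (0.0616-fold). The 2 that rose were SERPINA1, also a secreted liver protein (1.32-fold, edgeR adjusted p = 0.0271), and KRT18 (1.24-fold, edgeR adjusted p = 0.0116). AFP and APOA1 did not pass (edgeR adjusted p = 0.266 and 0.397). The summed level of the whole list, most of it KRT8 and KRT18, ran from 4560 to 4710 CPM in shCon and from 3510 to 4110 CPM in shUBXN1. GPC3, a marker of hepatocellular carcinoma on this list, was at 0 in every library, while the epithelial keratin KRT8 was at 2330 to 3470 CPM. Summed leukocyte markers were at 10.3 and 9.02 CPM in shCon and 7.23 and 7.22 CPM in shUBXN1, with 5 of 6 genes under 1 CPM and CD3E at 0. Summed endothelial markers were at 48.5 and 50.1 CPM in shCon and 92.7 and 100 CPM in shUBXN1, where KDR rose 3.45-fold (edgeR adjusted p = 5.19e-09) and PECAM1 1.28-fold (edgeR adjusted p = 0.00208) while CDH5 and TEK were under 1 CPM. Summed fibroblast markers were at 33.0 and 33.8 CPM in shCon and 16.9 and 19.7 CPM in shUBXN1, with 4 of 6 genes under 1 CPM. Most of this sum was LUM, at 31.7 and 32.3 CPM in shCon and 13.9 and 16.7 CPM in shUBXN1. Of the 3 fibroblast markers tested, 2 fell and 1 rose. The one that rose was COL1A1, from 0.375 and 0.17 CPM to 2.34 and 2.52 CPM (8.63-fold, edgeR adjusted p = 5.83e-05). The part of these shifts in the members' results was not tested, and in such bulk RNA fewer cells of a type and less RNA per cell cannot be told apart.

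The first question was whether the ATG8 transcripts changed when UBXN1 was knocked down. Of the 10 members, 6 rose and 0 fell at an adjusted p under 0.05, against 28.0% of all tested genes that rose and 56.2% that changed in either direction. The 6 were MAP1LC3A, MAP1LC3B, GABARAP, GABARAPL1, GABARAPL2 and the protease ATG4A. The median log2 fold change was 0.57 over the tested members, 0.87 over the tested ATG8 genes and 0.15 over the ATG4 genes. At a fold change of 2 with an unadjusted p under 0.05, which 11.8% of tested genes passed in the higher direction and 6.09% in the lower direction, MAP1LC3A and GABARAPL1 passed higher and 0 members passed lower. Without adjustment, too, 0 members were lower at p under 0.05, and DESeq2, limma-voom and limma on log2 CPM or log2 TPM each gave 6 higher and 0 lower.

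MAP1LC3A, an LC3 protein that coats autophagosomes, had the largest fold change of the members. It was at 8.03 and 7.87 CPM in shCon and at 22.5 and 22.6 CPM in shUBXN1. Both knockdown libraries lay far above both control libraries, and the libraries of a group lay close together. The log2 fold change was 1.50 (SE 0.117, 95% interval 1.25 to 1.76), or 2.84-fold, with an adjusted p of 1.01e-07 by edgeR's quasi-likelihood test. A larger log2 fold change was found for 7.0% of all tested genes.

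MAP1LC3B encodes the LC3 protein whose lipid-bound form is the usual marker of autophagosomes. It was at 79.3 and 79.6 CPM in shCon and at 135 and 155 CPM in shUBXN1. The shCon libraries were nearly equal, and the shUBXN1 libraries differed from each other but did not overlap with shCon. The log2 fold change was 0.87 (SE 0.0804, 95% interval 0.70 to 1.04), or 1.83-fold, with an edgeR adjusted p of 5.51e-07. Its neighbour FBXO31, which overlaps 1.2% of its exon bases on the other strand, moved the other way at 0.688-fold (edgeR adjusted p = 0.00016).

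MAP1LC3B2, the near copy of MAP1LC3B, was close to the limit of detection. It had 10.19 and 2.28 estimated counts in shCon and 7.86 and 7.99 in shUBXN1, or 0.0851 to 0.375 CPM. The groups overlapped, and it did not pass the filter on low counts. Fitted without the filter, its log2 fold change was 0.49 (SE 0.882) with an edgeR adjusted p of 0.713, so that a difference was not detectable at these counts. A further LC3 gene of the genome, MAP1LC3C, which was not among the members, had 1 to 3 counts per library.

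GABARAP, the founding gene of the other subfamily, acts in late steps of autophagosome formation and was the most abundant member in shCon. It was at 101 and 103 CPM in shCon and at 127 and 129 CPM in shUBXN1. The groups were tight and did not overlap. The log2 fold change was 0.33 (SE 0.0711, 95% interval 0.18 to 0.49), or 1.26-fold, the smallest of the 6 that rose, with an edgeR adjusted p of 0.00111. Without shCon replicate 2 the same log2 value of 0.33 had an adjusted p of 0.0527, above the threshold.

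GABARAPL1, a close relative of GABARAP that also binds cargo receptors, was at 27.6 and 24.1 CPM in shCon and at 63.6 and 59.5 CPM in shUBXN1. Both knockdown libraries were above both control libraries. It was 2.38-fold higher (95% interval of the log2 fold change 1.06 to 1.44, SE 0.0893), with an edgeR adjusted p of 4.31e-08. A larger log2 fold change was found for 9.32% of tested genes.

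GABARAPL2, also known as GATE-16 and linked to transport within the Golgi as well as to autophagy, was at 23.0 and 23.7 CPM in shCon and at 33.1 and 36.3 CPM in shUBXN1. The groups did not overlap. The log2 fold change was 0.57 (SE 0.0929, 95% interval 0.37 to 0.77), or 1.49-fold, with an edgeR adjusted p of 0.000119. Each of the 5 tested ATG8 genes thus rose, with fold changes from 1.26 to 2.84.

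**Figure D1:**
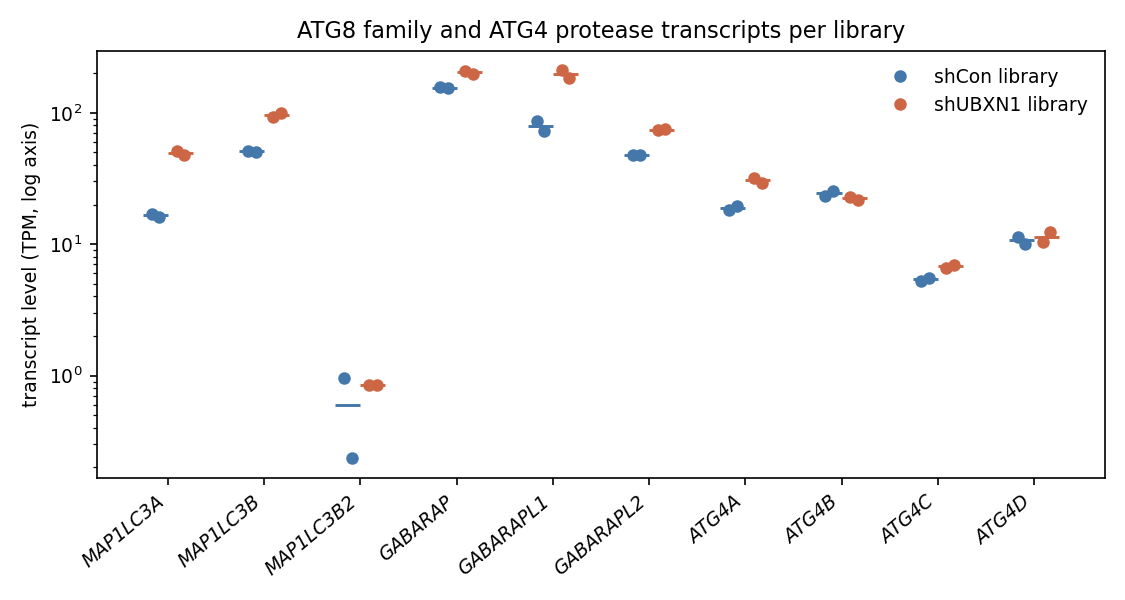
Level of each member in TPM on a log axis, with a point for every library of shCon and shUBXN1 and a bar at the group mean. The ATG8 genes other than MAP1LC3B2 sit higher in shUBXN1 than in shCon with no overlap, while ATG4D overlaps between groups.

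Among the ATG4 proteases, which prime ATG8 proteins and remove them from membranes, 1 of 4 rose, against 28.0% of all tested genes. ATG4A, which acts mainly on GABARAP-type proteins, was at 19.7 and 21.9 CPM in shCon and at 32.5 and 32.2 CPM in shUBXN1. Its groups did not overlap, and its log2 fold change of 0.64 (SE 0.096, 95% interval 0.43 to 0.85), or 1.56-fold, had an edgeR adjusted p of 5.65e-05.

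The other proteases did not pass the test. ATG4B, the most broadly active of them, was at 32.1 and 36.0 CPM in shCon and at 29.7 and 30.3 CPM in shUBXN1. The libraries did not overlap, but the log2 fold change of -0.18 (SE 0.0913, 95% interval -0.38 to 0.02) had an edgeR adjusted p of 0.107. ATG4C was at 7.5 and 8.13 CPM in shCon and at 8.85 and 9.95 CPM in shUBXN1, again without overlap. Its log2 fold change was 0.27 (SE 0.153, 95% interval -0.06 to 0.59) with an edgeR adjusted p of 0.154. In all tested genes, groups without overlap were common, at 39.4% in the higher and 38.6% in the lower direction. ATG4D, which like ATG4C is activated by caspase cleavage, was at 11.0 and 10.1 CPM in shCon and at 9.46 and 12.0 CPM in shUBXN1, so that the groups overlapped. Its log2 fold change was 0.02 (SE 0.15, 95% interval -0.30 to 0.35; edgeR adjusted p = 0.907) and changed sign under 3 alternatives given in the closing section. The intervals of ATG4B, ATG4C and ATG4D include 0 but do not show that these genes were equal in the 2 groups.

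**Figure D2:**
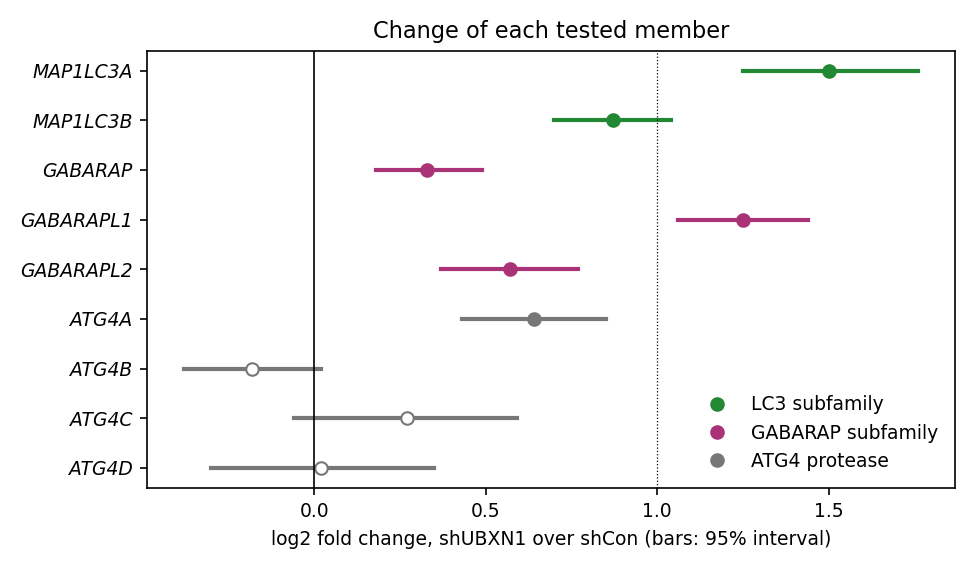
Log2 fold change of shUBXN1 over shCon for the 9 tested members, with 95% intervals from edgeR's quasi-likelihood fit. Intervals of the 6 genes that rose lie above 0, from GABARAP at 0.33 to MAP1LC3A at 1.50, and those of ATG4B, ATG4C and ATG4D cross 0.

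Levels were then compared between genes per length. In shCon the order by TPM was GABARAP (155 ± 1.29, SD, n = 2), GABARAPL1 (79.4 ± 9.23), MAP1LC3B (50.8 ± 0.938), GABARAPL2 (48.1 ± 0.0271), ATG4B (24.4 ± 1.48), ATG4A (18.9 ± 1.03), MAP1LC3A (16.6 ± 0.575), ATG4D (10.8 ± 0.922), ATG4C (5.42 ± 0.194) and MAP1LC3B2 (0.593 ± 0.507). No neighbours in this order overlapped between their 2 libraries. In shUBXN1 GABARAP (203 ± 7.86 TPM) and GABARAPL1 (197 ± 19.4 TPM) overlapped and could not be ordered. MAP1LC3A reached 49.1 ± 2.5 TPM and ATG4A 30.7 ± 1.8 TPM, so that MAP1LC3A stood below both ATG4A and ATG4B in shCon and above both in shUBXN1. The order of GABARAPL1 rests on a deposited length of 653 bases, whereas the canonical transcript has 1883.

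Summed over the 6 ATG8 genes, the pool was at 359 and 341 TPM in shCon and at 639 and 604 TPM in shUBXN1, a ratio of group means of 1.77. In CPM, with no length scaling, the ratio was 1.64. The ATG4 pool moved less, from 58.2 and 60.7 TPM to 72.0 and 70.5 TPM, a ratio of 1.2. The ratio of the ATG8 pool to the ATG4 pool in TPM was 6.17 and 5.62 in shCon and 8.87 and 8.56 in shUBXN1, and the groups did not overlap. The TPM sums and this ratio rest on the deposited lengths, such as 653 bases for GABARAPL1 against 1883 for its canonical transcript.

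The members of the ATG8 pool did not rise in proportion, so the make-up of the pool differed between the groups. GABARAP made up 43.3 and 45.0% of the pool in shCon and 32.7% in both shUBXN1 libraries, although its own level rose. GABARAPL1 went from 23.9 and 21.4% to 33.0 and 30.4%. MAP1LC3A went from 4.74% in both shCon libraries to 7.97 and 7.84%. In TPM these were the 3 largest shifts in share, without overlap between the groups, but in CPM the share of MAP1LC3B moved by 3.6 percentage points and that of MAP1LC3A by 2.43.

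The share of MAP1LC3B depended on the length used, which is 3134 bases as deposited and 2147 for the canonical transcript. It was 14.3 and 14.7% in shCon and 14.7 and 16.5% in shUBXN1 in TPM, where the groups touched. With canonical lengths it was 23.0 and 23.1% against 25.1 and 27.4%, and in CPM 33.2 and 33.4% against 35.4 and 38.4%, without overlap. GABARAPL2 held 13.4 and 14.1% against 11.5 and 12.4%. The LC3 subfamily as a whole went from 19.3 and 19.5% of the pool to 22.8 and 24.4% in TPM, a rise of 4.2 percentage points that came to 7.1 with canonical lengths and 6.1 in CPM. The GABARAP subfamily was the larger in every library on each of these scales. The size of the GABARAPL1 shift depends on the length used: its share rose by 9.1 percentage points in TPM, by 4.9 in CPM and by 4.15 with canonical transcript lengths, where it held 8.55% in shCon and 12.7% in shUBXN1. The fall of GABARAP by 11.5 points in TPM came to 10.2 points with canonical lengths.

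**Figure D3:**
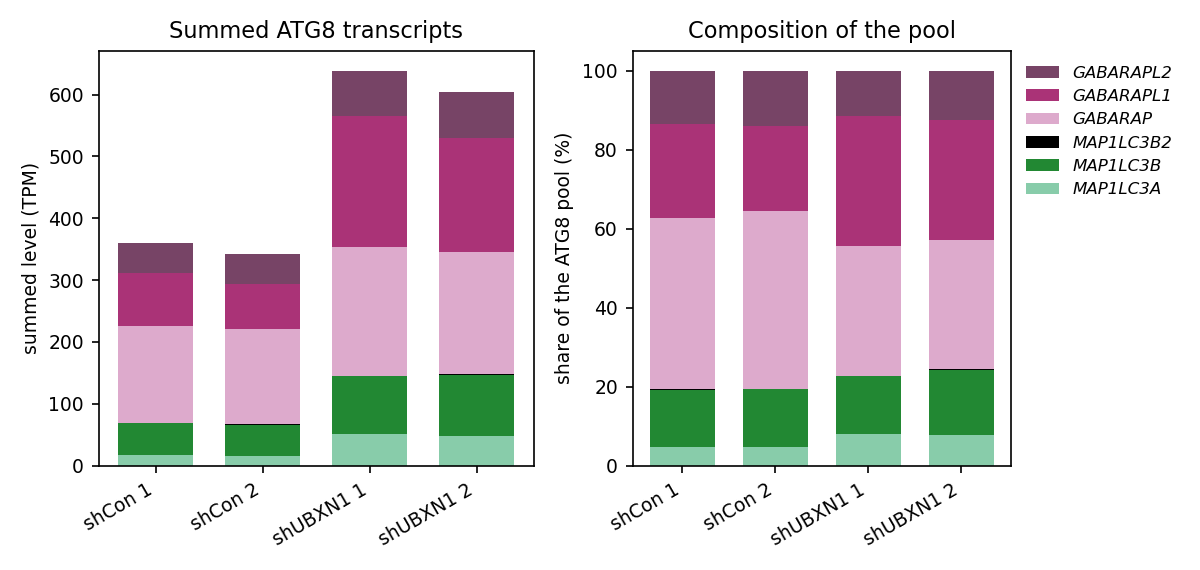
Stacked bars of the 6 ATG8 genes in each library, on the left as summed TPM and on the right as each gene's share of that sum, from 0 to 100%. In shUBXN1 the GABARAP share is smaller, at 32.7% in both libraries, and the GABARAPL1 and MAP1LC3A shares are larger.

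Ratios within a library, which do not depend on scaling between libraries, showed the same unequal change. The MAP1LC3A to MAP1LC3B ratio in TPM was 0.33 and 0.323 in shCon and 0.543 and 0.476 in shUBXN1. The GABARAPL1 to GABARAP ratio was 0.552 and 0.474 in shCon and 1.01 and 0.929 in shUBXN1. Within the proteases, ATG4A was below ATG4B in shCon, with ratios of 0.777 and 0.771, and above it in shUBXN1, with 1.39 and 1.35. These ratios do not overlap between groups, but the absolute ratio of 2 genes depends on the lengths used. The GABARAPL2 to GABARAP ratio moved least, from 0.309 and 0.313 to 0.353 and 0.38.

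The enzymes that attach ATG8 proteins to lipid were examined next, as a list of 8 genes with ATG7, ATG3, ATG10, ATG5, ATG12 and ATG16L1 among them. All 8 were tested and 0 rose or fell (0 also at an unadjusted p under 0.05), against 28.0% higher and 28.2% lower over all tested genes. The median log2 fold change was -0.04 against 0.02 over all genes tested. DESeq2 and limma-voom also called 0, while limma on log2(TPM + 1) and total count scaling each called 1 higher. The 2 genes with the smallest p were ATG5, a part of the complex that sets the site of lipidation, at 26.3 and 27.2 CPM in shCon and 21.7 and 24.9 CPM in shUBXN1, and ATG16L2, a relative of ATG16L1, at 4.84 and 4.94 CPM against 6.55 and 5.98 CPM. Their log2 fold changes were -0.20 (edgeR adjusted p = 0.104) and 0.36 (edgeR adjusted p = 0.121).

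Of 21 genes for the initiation of autophagy and the supply of its lipids, 14 rose and 2 fell, against 28.0% higher and 28.2% lower over all tested genes, with a median log2 fold change of 0.34. The kinase gene ULK2, whose product starts autophagy, was at 7.46 and 7.45 CPM in shCon and at 16.7 and 17.0 CPM in shUBXN1 (edgeR adjusted p = 2.69e-06). WIPI1, a reader of phosphatidylinositol 3-phosphate on the forming membrane, was at 10.1 and 9.36 CPM against 18.9 and 20.8 CPM (edgeR adjusted p = 6.29e-06). ATG9B, a membrane protein of ATG9 vesicles, was low at 1.01 and 0.426 CPM against 4.12 and 3.76 CPM (edgeR adjusted p = 8.5e-05). Groups without overlap were required for these 3 to be named. The 2 genes of this list that fell, WDR45B at 0.759-fold and TMEM41B at 0.751-fold, are named after their values were seen.

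Of 23 cargo receptor genes, most of whose products bind ATG8 proteins directly, 22 were tested, 8 rose, 7 fell and 7 did not pass, against 28.0% higher and 28.2% lower over all tested genes, with a median log2 fold change of 0.03. Total count scaling in place of the trimmed mean gave 10 higher and 5 lower. OPTN, a receptor for ubiquitin-marked mitochondria and bacteria, was at 50.9 and 48.5 CPM in shCon and at 102 and 107 CPM in shUBXN1 (edgeR adjusted p = 3.88e-08). CALCOCO1, a receptor in selective turnover of the endoplasmic reticulum, was at 25.5 and 23.8 CPM against 57.4 and 51.0 CPM (edgeR adjusted p = 1.2e-07). These 2 were the receptors that passed both call rules. Named after their values were seen, SQSTM1 (p62), the best known receptor for ubiquitinated cargo, fell to 0.549-fold (edgeR adjusted p = 2.68e-06) and PHB2, an inner mitochondrial membrane receptor for LC3, fell to 0.595-fold (edgeR adjusted p = 1.03e-06), whereas NBR1, a relative of SQSTM1, rose 1.56-fold (edgeR adjusted p = 4.64e-06). By qRT-PCR in MHCC97H cells, the study reported PHB2 mRNA as little changed by the knockdown. The cause of this difference was not tested.

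Of 14 genes listed as ATG8-binding transport and fusion factors, 7 rose and 3 fell, against 28.0% higher and 28.2% lower over all tested genes. Their median log2 fold change was 0.29. DESeq2 called 5 of them higher and 3 lower. Named after their values were seen, the 3 that fell were SNAP29 (0.699-fold, edgeR adjusted p = 0.000376), YKT6 (0.725-fold, edgeR adjusted p = 0.00022) and RAB7A (0.861-fold, edgeR adjusted p = 0.0311). The fusion genes STX17 and VAMP8 did not pass (edgeR adjusted p = 0.214 and 0.0836). TP53INP1, a stress-induced protein that binds ATG8 proteins, was at 13.2 and 11.5 CPM in shCon and at 49.6 and 47.9 CPM in shUBXN1 (edgeR adjusted p = 1.72e-09). TP53INP2, its relative, was at 14.1 and 14.0 CPM against 32.0 and 28.8 CPM (edgeR adjusted p = 5.98e-07). Groups without overlap were also required for these paralogues to be named.

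Of 10 transcription regulators of autophagy genes, 4 rose and 2 fell, against 28.0% higher and 28.2% lower over all tested genes, with a median log2 fold change of 0.29. MITF, a relative of the lysosomal regulator TFEB, was low and uneven, at 0.488 and 0.341 CPM in shCon and at 2.91 and 1.41 CPM in shUBXN1 (edgeR adjusted p = 0.000835). MITF, too, was named only because its groups did not overlap and it passed both call rules, and its shUBXN1 libraries were well apart.

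**Figure D4:**
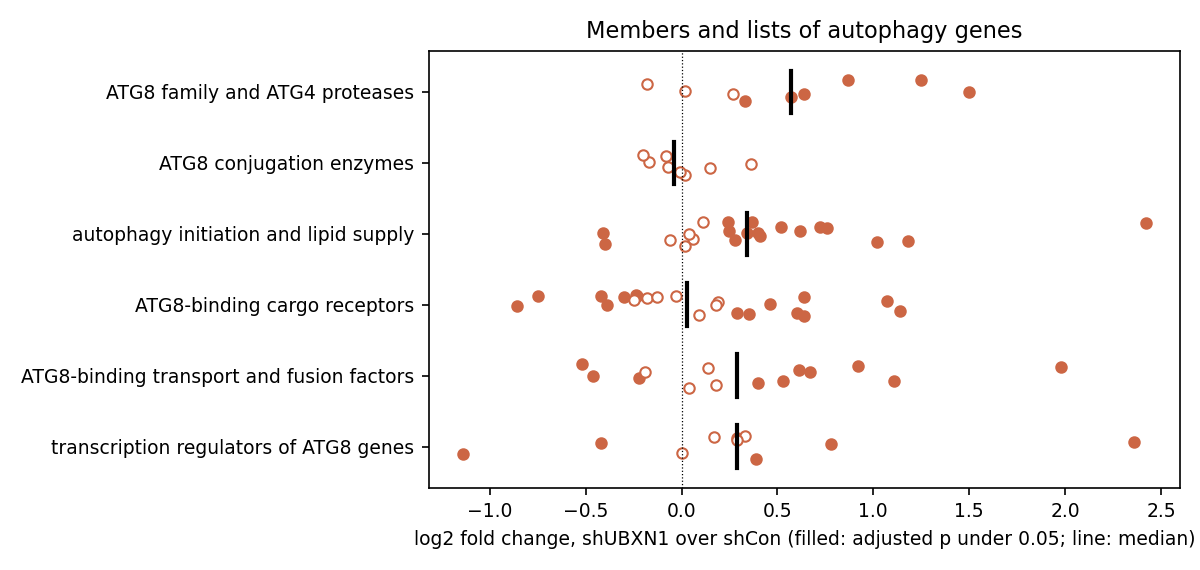
Log2 fold change of every tested gene of the members and of the pathway lists, with filled points for genes at an adjusted p under 0.05, a bar at each median and a dotted line at 0. The conjugation enzymes sit around 0 and the ATG8 genes above it, and the cargo receptors spread to both sides.

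The genes whose pattern over the 4 libraries lay nearest to MAP1LC3A, the member with the largest fold change, were found by Euclidean distance in log2 CPM after centring each gene on its shCon mean. They were SULT1A1 (distance 0.043), CHKA-DT (0.048), DIRAS2 (0.049), NLGN2 (0.062) and TMEM187 (0.072), with fold changes from 2.74 to 2.99. In all, 88 genes lay within 0.2, and a fold change of this size shared by 2 libraries a group is enough to place a gene there.

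**Figure D5:**
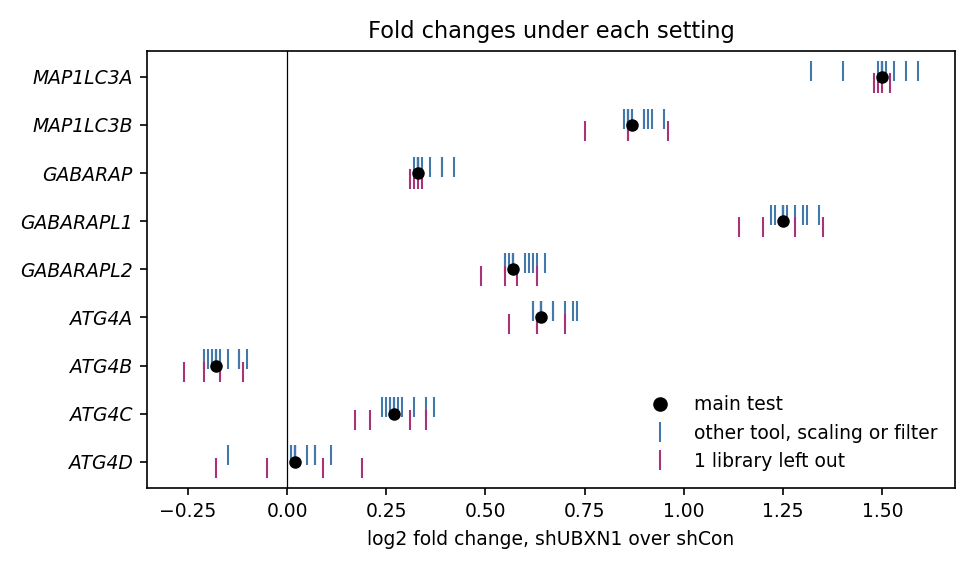
Log2 fold change of each tested member under the reported setting and under each of 16 alternative settings, with the reported value as a point and each alternative as a tick, those that leave out 1 library in a separate colour. The ticks of MAP1LC3A stay between 1.32 and 1.59 and those of GABARAPL1 between 1.14 and 1.35, and those of ATG4D lie on both sides of 0.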

How the data were processed

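Polyadenylated RNA of 4 MHCC97H libraries (2 shCon, 2 shUBXN1) was sequenced in pairs on an Illumina instrument. The authors deposited expected counts per Ensembl gene, with 2 decimals, and 1 length per gene. The processing notes name HISAT2 2.0.4, StringTie 1.3.0 and GRCh37, while the methods name GRCh38. The annotation release, counting tool and strand setting are not given in the sources used here. Of the 61541 gene IDs, 61369 are in GENCODE v44, from which symbols, positions and coding sequences were taken, and 95.2% of the lengths of detected genes equal those of a GENCODE v44 transcript. The labels name another library kit and another control name (shCon) than the methods.

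Counts were rounded to whole numbers and tested in edgeR 4.0.16 (R 4.3.3; filterByExpr, trimmed mean of M-values, quasi-likelihood test, Benjamini-Hochberg adjustment). A gene was called at an adjusted p under 0.05, or at a fold change of 2 with an unadjusted p under 0.05. Standard errors were obtained from each gene's fold change and F statistic. TPM was computed from the deposited lengths. No label says that the shared replicate numbers mark a shared culture day, so no block was used. Same-numbered libraries of the groups did not deviate together (correlation 0.0393). The 2 libraries of a group differed by more than counting noise (chi-square per degree of freedom 3.75 and 8.34).

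The members and lists were chosen with earlier results of these data known. Genes named beside the members are UBXN1, the genes of each list past both call rules with groups that do not overlap (or the 2 with the smallest p where fewer than 2 pass), and the 5 genes nearest in pattern to the member with the largest fold change. A further gene that this rule names is not reported here. Alternatives were DESeq2 1.42.0, limma 3.58.1 (voom, log2(CPM + 1), log2(TPM + 1), log2(TPM + 0.1)), other size factors and filters, a replicate block, and each library left out. Removal of the trend with GC content, counts without rounding and canonical lengths were chosen after the data were seen. Scripts were tested on simulated data with 50 genes changed at each fold, of which 20% were recovered at 1.25-fold and 98% at 2-fold. Far fewer genes changed there than passed in the data, so these shares do not give the power of the main test.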

Additional observations from a re-analysis of the deposited data

How the results depend on the processing

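Under each of 16 alternatives MAP1LC3A, MAP1LC3B, GABARAPL1, GABARAPL2 and ATG4A kept their direction and an adjusted p under 0.05, with log2 fold changes of 1.32 to 1.59, 0.75 to 0.96, 1.14 to 1.35, 0.49 to 0.65 and 0.56 to 0.73. GABARAP stayed at 0.31 to 0.42 but missed the threshold without shCon replicate 2 (0.33, SE 0.144, adjusted p = 0.0527), which left 5 members higher. ATG4B (-0.26 to -0.10) and ATG4C (0.17 to 0.37) did not pass the threshold in any. ATG4D ranged from -0.18 to 0.19 and reversed with the trend over GC content removed (-0.15), without shCon replicate 2 (-0.05) and without shUBXN1 replicate 2 (-0.18), where the lone library of a group is assumed to vary like the other group. The causes were not tested. With the replicate block, the number being only a label, the values were 1.50 for MAP1LC3A, 0.86 for MAP1LC3B, 0.33 for GABARAP and 1.25 for GABARAPL1, the block changed no member's call, and over all genes 5000 rose and 5023 fell in place of 4727 and 4751. Total count scaling moved the median of all genes from 0.02 to 0.10. Pool shares kept the direction of their change in CPM and with canonical lengths. The low counts of MAP1LC3B2 allow no call, and the part of depth and of read assignment in them was not tested.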
